A study of Mus musculus with 2 samples.

Results

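The 9 genes described here, Gas5, Snhg1, Snhg3, Snhg5, Snhg6, Snhg8, Snhg12, Snhg15 and Snhg20, are long non-coding genes that carry small nucleolar RNA (snoRNA) genes in their introns. They were taken by symbol from a table of 55536 mouse genes, 10155 of them long non-coding. A snoRNA host gene is transcribed and spliced like a messenger RNA precursor. The snoRNA is trimmed out of the excised intron after debranching, and its proteins protect it from the exonucleases that degrade the rest. The spliced exons of several hosts are short-lived in the cytoplasm, where nonsense-mediated decay removes them once ribosomes meet their short reading frames, and both the spliced RNA and its introns arise in the nucleus. Box C/D snoRNAs guide 2′-O-methylation and box H/ACA snoRNAs guide pseudouridylation, mostly of ribosomal RNA.

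The RNA came from the nuclear fraction of bone-marrow-derived macrophages of C57BL/6J mice, which another label calls nucleoplasmic, and was sequenced as total RNA after removal of ribosomal RNA. The cells had met Lipid A, the TLR4-binding part of bacterial lipopolysaccharide, at 100 ng/ml for 12 h, were washed and kept without it for 12 h, and met it again at 100 ng/ml for 120 min. All samples belong to this 1 condition, with 2 biological replicates that carry the same donor label. Replicate 1 started from 1000 ng of RNA and replicate 2 from 500 ng, so input and replicate cannot be told apart. Untreated or singly treated cells were not analysed here, and nothing below is a response to Lipid A. P-values between the replicates set the difference between these 2 samples against counting error only, and that difference may be technical.

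The libraries differed in depth and make-up. Replicate 1 had 28450309 expected counts on genes, and replicate 2 had 16940220. Genes of the mitochondrial genome took 4.15% and 10.3% of them, and short structural RNAs took 72.7% and 53.9% of the TPM (each gene's share of all transcripts after correction for length, scaled to a fixed total). All 7 macrophage markers were at 39.2 TPM or more in both libraries, and all 7 were called lower in replicate 2 on TMM-scaled counts, where 30% of all tested genes were called lower. All 15 markers of other cell types, from T cells to mast cells, were below 1 TPM and summed to 1.79 and 1.98 TPM, and Cd3e, Cd79a, Ncr1 and Ly6g had 0 counts.

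All 9 host genes were detected, here meaning 1 TPM or more in both libraries, as were 646 of the 10155 long non-coding genes (6.36%). Their median was 8.65 TPM in replicate 1 and 12.6 TPM in replicate 2, against 2.52 and 4.77 TPM over the detected long non-coding genes. In bulk RNA, fewer cells of a kind and less RNA per cell cannot be told apart. Gas5 led the group. It lies at chr1:161034422-161038539 (mm10, plus strand), was first found as a transcript that accumulates in growth-arrested cells, and has 25 annotated transcripts. Its level was 36.7 TPM in replicate 1 and 53.3 TPM in replicate 2 (45.0 ± 11.7, SD, n = 2), which ranked it 29th and 30th among the long non-coding genes. Gas5 alone held 29.7% and 37.9% of the summed TPM of the 9 genes, so every sum over the group is weighted to it.

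Snhg8 (chr3:123507552-123508404, minus strand), the host of Snora24, stood second. It was at 32.3 TPM in replicate 1 and 17.4 TPM in replicate 2 (24.8 ± 10.5). On deposited TPM it was the exception among the 9: the other 8 had the higher TPM in replicate 2. That contrast depends on the total. With short structural and mitochondrial RNAs left out of it, only Gas5, Snhg1 and Snhg5 were higher in replicate 2. Snhg20 (chr11:117076008-117078955, plus strand) followed Snhg8 in level, at 13.7 and 17.6 TPM (15.7 ± 2.76). Snhg3 (chr4:132348014-132353686, minus strand), the host of the 2 Snora73 copies, was at 12.3 and 12.6 TPM (12.4 ± 0.255). Snhg1 (chr19:8723475-8726443, plus strand), long known as the U22 host gene, was at 8.65 and 12.6 TPM (10.6 ± 2.79). Among these 5 genes the replicates lay closest for Snhg3 and furthest apart, as a ratio, for Snhg8.

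The remaining 4 genes lay below 9 TPM in both libraries. Snhg6 (chr1:9941959-9944118, minus strand), the host of Snord87, was at 7.10 and 8.45 TPM (7.78 ± 0.955). Snhg5 (chr9:88521050-88522929, minus strand), which carries Snord50a and Snord50b, was at 4.08 and 7.95 TPM (6.02 ± 2.74). Snhg12 (chr4:132308623-132311024, plus strand), on the same chromosome as Snhg3, was at 4.63 and 5.35 TPM (4.99 ± 0.509), and Snhg15 (chr11:6525591-6528760, minus strand), the host of Snora9, at 4.16 and 5.28 TPM (4.72 ± 0.792). Between neighbours in this order, the 2 libraries did not overlap for Gas5 over Snhg8, Snhg20 over Snhg3 and Snhg1 over Snhg6. For the other neighbours they overlapped, so the order within Snhg8 and Snhg20, within Snhg3 and Snhg1, and from Snhg6 down to Snhg15 is not set by these data.

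**Figure D1:**
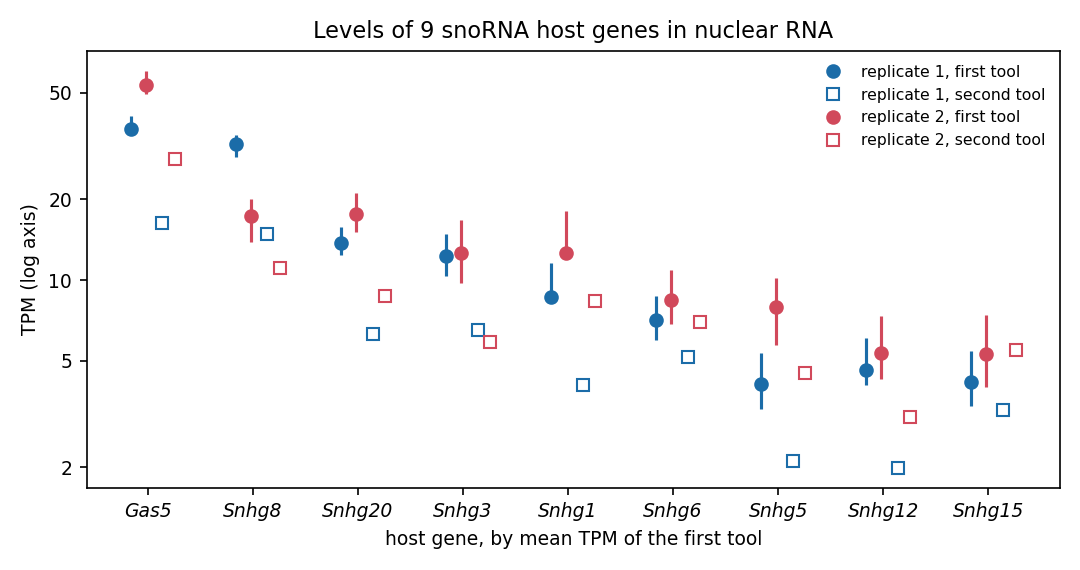
TPM of the 9 host genes on a log axis, with 1 symbol per library and tool (filled circles, first tool, with the deposited credibility interval as a line; open squares, second tool). Gas5 sits at 36.7 and 53.3 TPM in the first tool, and the open squares lie below the filled circles of their library for every gene except Snhg15 in replicate 2.

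The second tool distributed the same libraries over the same transcripts. By mean TPM it placed the 9 genes lower but with Gas5, Snhg8 and Snhg20 again on top. It gave Gas5 16.3 and 28.4 TPM, Snhg8 14.9 and 11.1 TPM, and Snhg20 6.29 and 8.71 TPM. Here Snhg3, at 6.51 and 5.89 TPM, overlapped Snhg20 and lay above it in replicate 1. Snhg1, at 4.06 and 8.39 TPM, overlapped Snhg6, at 5.18 and 6.96 TPM. Of the separations between neighbours named above, only Gas5 over Snhg8 held with this tool. The ratio of the mean TPM of the first tool to that of the second ran from 1.08 for Snhg15 to 2.09 for Snhg20, with a median of 1.91, against 1.35 over 10394 genes detected with both. On this tool Snhg12 rather than Snhg15 was the lowest, at 1.99 and 3.09 TPM, and 7 of the 9 genes were higher in replicate 2. The deposited credibility intervals, whose level was not stated, did not overlap between the libraries for Gas5 (34.9 to 41.1 and 49.4 to 60.5 TPM), Snhg8, Snhg1 and Snhg5, 4 of 9, against 55.5% of all 14698 tested genes. The interval belongs to another estimate from the same reads: for Snhg1 in replicate 2 it ran from 12.7 to 18.2 TPM, above the 12.6 TPM deposited for that library.

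For 4 of the 9 genes the annotation holds transcripts typed as retained intron, which keep an intron that other transcripts of the gene remove. These are 38 of the 83 transcripts of the group: 20 of 25 in Gas5, 14 of 18 in Snhg1, 3 of 6 in Snhg5 and 1 of 3 in Snhg8. Retained-intron transcripts took 54.2% of the Gas5 TPM in replicate 1 and 73.0% in replicate 2 (63.6% ± 13.2, SD, n = 2), and 54.6% and 74.0% with the second tool. The Gas5 share lay above that of most genes with such transcripts in both libraries: the median over 6946 tested genes was 23.6% and 29.97%. The corresponding median over 109 long non-coding genes was 47.5% and 57.1%, nearer to the Gas5 values. The median gene of the 6946 has 2 such transcripts and Gas5 has 20, and the part of this number in the share was not tested.

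Snhg1 had 45.3% and 43.7% of its TPM on retained-intron transcripts (44.5% ± 1.15), and the libraries differed by less than 2 points. Snhg8 had 28.5% and 41.0% (34.7% ± 8.84), all on the single-exon transcript Snhg8-202, which spans both of its introns. Snhg5 had 33.2% and 35.1% (34.1% ± 1.36). With the second tool the shares were 37.5% and 36.9% for Snhg1, 28.0% and 39.8% for Snhg8, and 36.0% and 54.4% for Snhg5, so the tools differed most for Snhg5 in replicate 2. The second tool's median over all 6946 genes was 30.5% and 35.8%, and Snhg8 in replicate 1 lay below it. With the first tool Snhg1, Snhg8 and Snhg5 all lay below the median of the 109 long non-coding genes, 47.5% and 57.1%, in both libraries. With the second tool that median was 44.4% and 51.4%. Of Snhg1, Snhg8 and Snhg5, only Snhg5 in replicate 2 then lay above it. Replicate 2 had the higher share in 3 of these 4 genes and in 66.8% of the 6946 genes, so most genes shared that direction. Counted in expected counts instead of TPM, which weights long transcripts more, the shares were 79.3% and 88.6% for Gas5 and the median of the 4 genes was 66.5% instead of 40.8%.

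**Figure D2:**
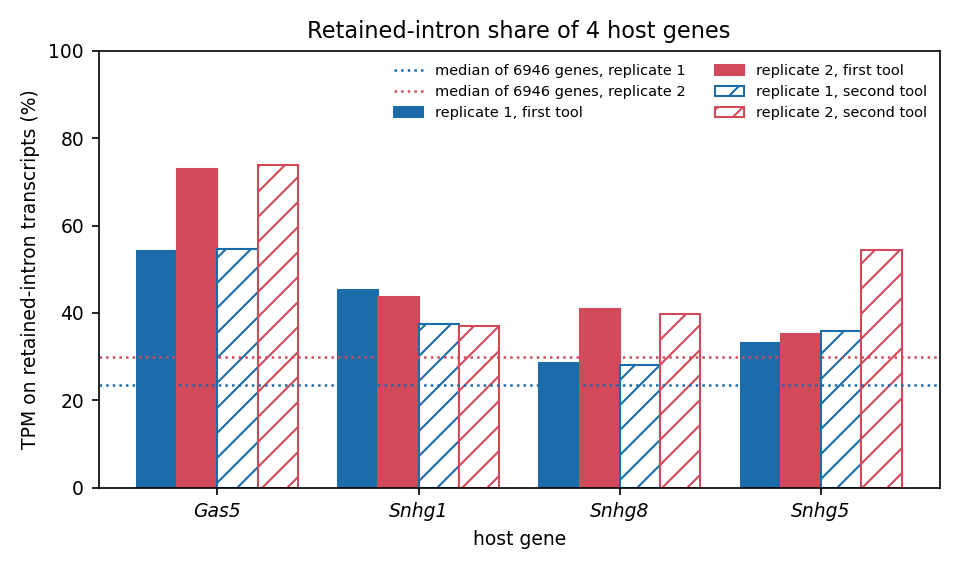
Percent of each gene's TPM on transcripts typed as retained intron, in each library (blue, replicate 1; red, replicate 2) and with each tool (solid, first; hatched, second), with dotted lines at the first tool's medians of all 6946 tested genes that have such transcripts. Gas5 stands at 54.2% and 73.0% in the first tool, and the first-tool bars of every host lie above the dotted line of their replicate. The first-tool bars of Snhg1, Snhg8 and Snhg5 lie below the median of 109 long non-coding genes, 47.5% and 57.1%, which is not drawn.

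Within Gas5 the leading spliced form was lower in replicate 2, and 11 of the 20 retained-intron transcripts were higher, 4 lower and 5 equal. The leading spliced transcript, Gas5-224, with 12 exons, was at 13.1 TPM in replicate 1 and 7.88 TPM in replicate 2, or 35.6% and 14.8% of the gene. Gas5-214, a retained-intron transcript with 2 exons, was at 1.76 and 9.83 TPM, and was the leading Gas5 transcript in replicate 2. Gas5-218, a retained-intron transcript of 2556 nt, was at 3.34 and 7.02 TPM, and Gas5-213 was at 2.26 and 5.85 TPM. Not all forms followed this: the spliced Gas5-210 was at 3.55 and 6.53 TPM and the retained-intron Gas5-220 at 2.28 and 0.92 TPM. The second tool gave the same directions for the first 4 transcripts, with Gas5-224 at 5.79 and 4.67 TPM and Gas5-214 at 0.865 and 3.95 TPM, but kept Gas5-224 on top in both libraries. Replicate 2 also had more mitochondrial RNA and a shorter mean fragment, 218 nt against 237 nt, and the part of these in the shift was not tested.

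To place the retained sequence along Gas5, each of the 11 introns of Gas5-224 was given the share of the TPM of the transcripts reaching across it that keep it whole. Intron 4, which carries no annotated snoRNA, was held most, at 39.5% in replicate 1 and 61.1% in replicate 2. Among the 9 introns with a snoRNA gene, intron 6, home of Snord78, was highest at 24.3% and 33.3%, followed by intron 3 at 20.4% and 30.05%. This order depends on counting whole introns. Counting transcripts that hold the snoRNA gene in an exon, intron 6 was at 25.8% and 33.3%. Intron 3, with Gm22357, was then at 24.5% and 44.3%, the higher of these in replicate 2. Toward the 3′ end the shares were lower, at 5.51% and 5.61% for intron 9 with Snord80, 4.59% and 9.46% for intron 10 with Snord47, and 2.02% and 1.76% for intron 11. Replicate 2 had the higher share at 10 of the 11 introns, intron 11 being the exception, and at all 11 with the second tool. These shares come from how the tools divided reads among annotated transcripts and not from reads counted over each intron, and few transcripts decide each one: introns 1, 9 and 10 are each held by 1 transcript.

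**Figure D3:**
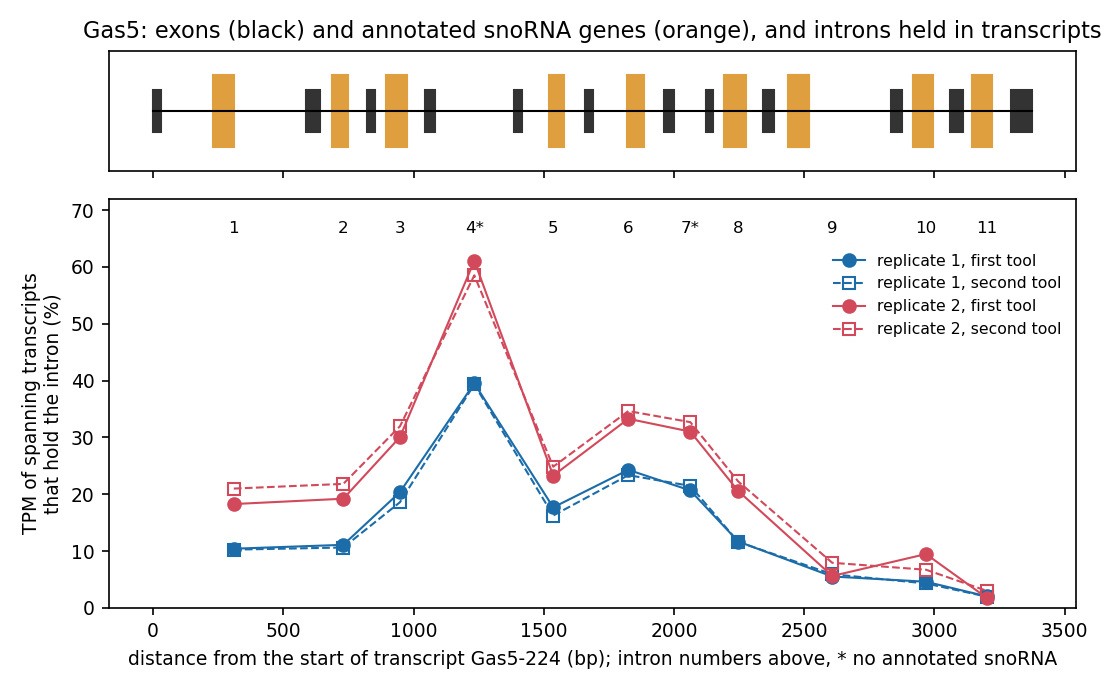
Upper panel, exons of Gas5-224 (black) and annotated snoRNA genes (orange) by distance from its start; lower panel, percent of the TPM of transcripts spanning each intron that hold it, in each library and tool. Intron 4, without an annotated snoRNA, peaks at 39.5% and 61.1%, and introns 9 to 11 lie below 10% in both libraries.

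The sequences of a strongly held and the least held snoRNA intron of Gas5, and of the snoRNA intron of Snhg8, show where the snoRNA sits in each intron. They were read from GENCODE M21 transcripts that hold the intron (mm10), with the annotated snoRNA gene in capitals. Gas5 intron 3 lies at chr1:161036015-161036207 and carries the snoRNA gene Gm22357, Gas5 intron 11 lies at chr1:161038273-161038456 and carries Gm25789, and Snhg8 intron 1 lies at chr3:123507863-123508111 on the minus strand and carries Snora24.
Gas5 intron 3: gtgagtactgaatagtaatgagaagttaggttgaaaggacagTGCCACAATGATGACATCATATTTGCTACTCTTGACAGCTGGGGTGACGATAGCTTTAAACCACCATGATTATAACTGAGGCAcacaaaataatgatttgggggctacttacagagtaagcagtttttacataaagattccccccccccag
Gas5 intron 11: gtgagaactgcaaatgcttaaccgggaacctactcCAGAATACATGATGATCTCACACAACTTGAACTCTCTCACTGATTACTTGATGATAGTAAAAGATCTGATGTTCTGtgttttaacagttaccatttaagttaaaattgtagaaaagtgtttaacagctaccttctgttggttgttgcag
Snhg8 intron 1: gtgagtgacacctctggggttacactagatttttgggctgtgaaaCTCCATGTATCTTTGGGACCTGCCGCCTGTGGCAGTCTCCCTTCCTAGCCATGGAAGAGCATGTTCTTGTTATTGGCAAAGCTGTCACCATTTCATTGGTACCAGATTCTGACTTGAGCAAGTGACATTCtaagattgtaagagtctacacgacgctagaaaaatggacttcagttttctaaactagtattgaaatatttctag
These introns measure 193, 184 and 249 nt. All 23 snoRNA-bearing introns of the group that could be read this way open with GT and close with AG. Intron 3 of Gas5 was held at 20.4% and 30.05%, intron 11 at 2.02% and 1.76%, and Snhg8 intron 1 at 28.5% and 41.0%. The lengths of the 2 Gas5 introns differ by 9 nt, and a part of length in these shares was not tested.

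Introns were also held in hosts without any transcript typed as retained intron. In Snhg12, whose leading transcript Snhg12-206 made 54.1% and 38.5% of the gene, the 4 introns were held at 5.79% to 26.7% in replicate 1 and 8.43% to 35.9% in replicate 2, by transcripts typed as lincRNA. Its intron 4 with Snord99 was held at 22.9% and 35.9%. In Snhg20 the single-exon Snhg20-203, also typed as lincRNA, held the intron of the leading Snhg20-202 at 13.2% and 12.1%. The retained-intron type of the annotation therefore does not cover all intron-holding transcripts of these genes. This share over transcripts of any type was chosen after the data were seen.

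In Snhg1 the 9 introns of Snhg1-211, its leading transcript in the first tool, were held at 11.4% to 34.3% in replicate 1 and 13.96% to 39.4% in replicate 2. With the second tool intron 1 was held far more, at 60.7% and 67.2% against 33.1% and 36.1% with the first. Its leading retained-intron transcript, Snhg1-215 of 2728 nt, made 17.5% and 21.7% of the gene, and Snhg1-203 made 8.67% and 6.82%, or 10.8% and 10.1% with the second tool. The tools disagreed on the leading spliced form: Snhg1-211 had 52.7% and 50.4% of the gene in the first tool but 17.8% and 14.7% in the second, which gave 44.7% and 48.4% to Snhg1-207. In Snhg5 the retained-intron transcript Snhg5-204 made 9.83% and 23.3% and Snhg5-206 made 16.2% and 11.8%, and its leading transcript by mean, Snhg5-203, was at 0.80 and 3.87 TPM in the first tool and at 0.483 and 0 TPM in the second. The transcript make-up of Snhg5 is thus not settled by these tables, at 128 and 85 expected counts for the gene.

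In Snhg3, Snhg5, Snhg6 and Snhg15 no annotated transcript keeps a snoRNA-bearing intron of the leading transcript whole. For these introns the share is therefore 0 by construction and not a measurement. In Snhg15 and Snhg5 other transcripts did hold the snoRNA gene in an exon. They made 32.6% and 10.7% of the spanning TPM for Snora9, 9.83% and 23.3% for Snord50a, and 7.13% and 0% for Snord50b. With the second tool these shares were 26.9% and 16.9%, 9.37% and 22.3%, and 6.35% and 11.25%. In Snhg3 and Snhg6 no transcript held a snoRNA gene. Snhg3-204, with 3 exons, made 83.2% and 93.1% of Snhg3. In Snhg6 the leading transcript by mean was Snhg6-205, at 3.01 and 5.17 TPM, and its intron 2, which carries no snoRNA, was held at 8.45% and 12.4%. In Snhg15 it was Snhg15-204, at 1.63 and 2.76 TPM. The leading transcript was the same in both libraries and both tools for 4 genes, Snhg3, Snhg8, Snhg12 and Snhg20. Of all 83 transcripts, 21 reached 1 TPM in both libraries and 20 were listed at 0 in both with the first tool.

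The small RNAs themselves were mostly out of reach of these libraries. The 9 genes contain 31 annotated small RNA genes on their own strand, 30 typed as snoRNA and 1, Gm26083 in Snhg20, as a Cajal body RNA, with lengths from 60 to 205 nt. For 25 of them the deposited effective length, the number of places a fragment can start, was 0, and only 6 had any expected count. All 10 small RNA genes inside Gas5, namely Gm26224, Gm22489, Gm22357, Gm23212, Snord78, Mir5117, Snord47, Gm25789 and 2 overlapping models of Snord80, were at 0 in the gene tables of both libraries. Each of these has an effective length of 0, so a 0 there is no sign that the snoRNA is missing. Over the whole annotation, 1470 of 1558 snoRNA and Cajal body RNA genes (94.4%) were at 0.

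The small RNA genes with the most counts inside hosts were Snora73b, Snora73a and Snord22, and all 3 were far lower in replicate 2. Snora73a and Snora73b, known as U17 or E1, are H/ACA RNAs that act in the cleavage of the ribosomal RNA precursor. Snora73b had 470 expected counts in replicate 1 and 33.8 in replicate 2, a log2 ratio of -3.19 on TMM-scaled counts (adjusted p = 5.67e-64, exact binomial test). Snora73a had 419 and 39.8 (log2 ratio -2.79, adjusted p = 3.07e-50 by the same test), and Snord22, also called U22 and needed for maturation of the small-subunit ribosomal RNA, had 202 and 10.9 (log2 ratio -3.55, adjusted p = 1.15e-30). On counts of the second tool, an alternative added after the data were seen, the log2 ratios were smaller in size, -2.44 for Snora73b, -2.60 for Snora73a and -3.14 for Snord22, and all 3 were again called lower. Gm26083 had 53.5 and 28.1 counts and did not pass (log2 ratio -0.32, adjusted p = 0.464 in the exact binomial test). Short structural RNAs in general took less of replicate 2 (5.56% of counts against 10.1%), and the part of this in the difference was not tested.

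The sequences of the 4 small RNA genes whose mean count reached 10 are shown, as those these libraries counted best, from the GENCODE M21 transcripts, with the ACA near the 3′ end in capitals where a search found it in the last 6 bases. Snora73b lies at chr4:132352322-132352526 and Snora73a at chr4:132352775-132352979, both on the minus strand; Gm26083 lies at chr11:117077243-117077435 and Snord22 at chr19:8725866-8725991, both on the plus strand.
Snora73b: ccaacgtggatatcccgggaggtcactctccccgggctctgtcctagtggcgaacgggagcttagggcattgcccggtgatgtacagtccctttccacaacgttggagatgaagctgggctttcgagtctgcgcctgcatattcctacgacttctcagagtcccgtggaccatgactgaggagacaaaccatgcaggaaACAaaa
Snora73a: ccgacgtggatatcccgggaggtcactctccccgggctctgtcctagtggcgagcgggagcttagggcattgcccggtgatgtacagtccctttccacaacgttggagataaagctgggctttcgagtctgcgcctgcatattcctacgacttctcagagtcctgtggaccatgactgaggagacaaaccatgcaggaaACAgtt
Gm26083: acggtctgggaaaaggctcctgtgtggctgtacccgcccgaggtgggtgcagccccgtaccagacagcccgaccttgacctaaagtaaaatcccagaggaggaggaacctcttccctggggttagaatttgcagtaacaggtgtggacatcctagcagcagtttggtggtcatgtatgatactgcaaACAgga
Snord22: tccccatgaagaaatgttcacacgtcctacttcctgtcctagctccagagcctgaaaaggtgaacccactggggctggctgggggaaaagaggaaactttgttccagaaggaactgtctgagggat
The Snora73 copies are identical at 198 of 205 positions (96.6%), so how the tool divided reads between them is uncertain, and their counts are best read together. Snord22 has 126 nt and an effective length of 0, and its TPM was listed at 0 in both libraries in spite of its counts. With 193 nt or more, the other 3 are the longest of the 31.

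**Figure D4:**
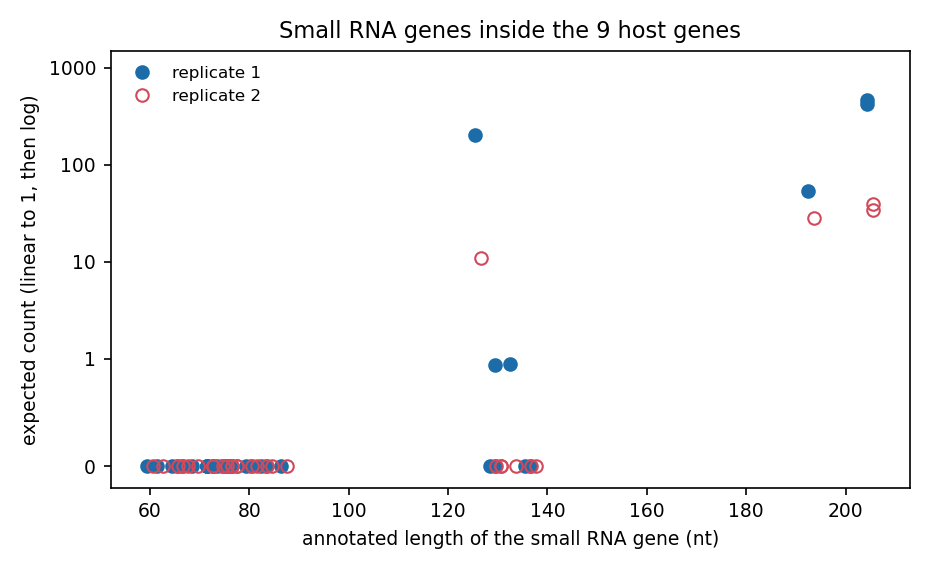
Expected count of each of the 31 small RNA genes inside the hosts (y axis, linear to 1 and then log) against its annotated length in nt, in replicate 1 (filled) and replicate 2 (open). Every gene under 100 nt sits at 0, and the 3 longest genes, with Snord22 at 126 nt, make up the points at 10 counts or more.

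Most of the small RNA genes are box C/D in sequence. A search on their own strand found TGATGA in the first 20 bases together with CTGA in the last 15 in 17 of 31 (54.8%), against 19.9% of all 1558 annotated genes of these types, and otherwise ACA in the last 6 bases in 8 (25.8%), against 45.8%. Snord80 and Snord47, from Gas5 introns 9 and 10, illustrate the first kind, with both boxes in capitals. They lie at chr1:161037601-161037681 and chr1:161038082-161038158 on the plus strand.
Snord80: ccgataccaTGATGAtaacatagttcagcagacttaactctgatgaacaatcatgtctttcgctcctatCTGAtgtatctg
Snord47: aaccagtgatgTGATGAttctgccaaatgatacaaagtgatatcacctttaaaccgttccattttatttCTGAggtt
The distance from the end of a small RNA gene to the 3′ splice site of its intron had a median of 76 nt, and 22 of the 31 lay between 60 and 100 nt from it. In Snhg5, Snhg15 and Snhg20 the median was above that range. The largest distances were 1595 nt for Snora9 in Snhg15 and 1340 nt for Gm26083 in Snhg20. Motifs and distances describe the annotation and were not measured in these libraries.

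Between the libraries, Snhg8 stood out on counts as it had on TPM. Each gene with a mean count of 10 or more was compared by an exact two-sided binomial test on rounded expected counts with library sizes scaled by TMM, adjusted by Benjamini-Hochberg over 14698 genes and read at a threshold of 0.05. By this test 59.3% of all genes were called, 29.3% higher and 30% lower in replicate 2. Of the 9 hosts 3 were called lower, 0 higher, and 6 were not called, and the count called lower is near the background for that direction. Snhg8 had 492 and 134 expected counts (log2 ratio -1.29, adjusted p = 4.99e-22, exact binomial test), at the 3.78th percentile of all tested genes. Only this host lay further from the median of all tested genes than their SD of 0.87.

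Snhg3 had 133 and 60.9 counts (log2 ratio -0.53, adjusted p = 0.0299, exact binomial test) and Snhg20 had 387 and 213 (log2 ratio -0.28, adjusted p = 0.0442, same test). Both calls were lost at a threshold of 0.01, where 26.1% of all genes were still called lower, and when library size alone was used for scaling (adjusted p = 0.149 for Snhg3 and 0.460 for Snhg20 in the exact binomial test). Gas5 had 1115 and 821 counts and a log2 ratio of 0.14, which missed the threshold (adjusted p = 0.0568, exact binomial test), and Snhg1 had 370 and 265 counts and a log2 ratio of 0.10 (adjusted p = 0.489, same test). The remaining log2 ratios, none of which passed, were -0.07 for Snhg6, -0.00 for Snhg5, -0.31 for Snhg12 and -0.26 for Snhg15. Scaled by library size alone, the median of all genes moved from 0.01 to 0.17, 63.8% instead of 49.4% of calls were higher in replicate 2, and Gas5 and Snhg1 were called higher while Snhg8 stayed lower, with 38.6% of all genes called higher and 21.9% lower. On counts of the second tool Snhg6, Snhg12 and Snhg15 were also called lower, which made 6 of 9, where that tool called 30.6% of all genes lower. Gas5 and Snhg1 changed direction with that tool, at log2 ratios of -0.11 and -0.18, and were not called.

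**Figure D5:**
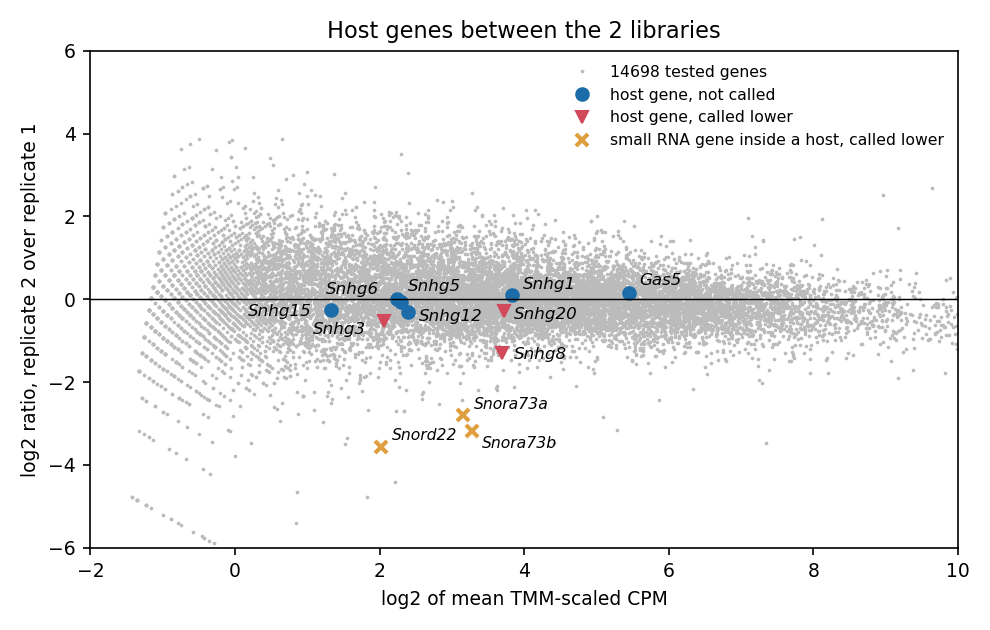
Log2 ratio of replicate 2 over replicate 1 against the log2 of the mean TMM-scaled CPM for 14698 tested genes (grey; 103 lie outside the axes), with the 9 hosts as blue circles (not called) or red triangles (called lower) and the called small RNA genes as orange crosses. Snhg8 lies at -1.29, the other 8 hosts between -0.53 and 0.14, and the 3 small RNA genes between -3.55 and -2.79.

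On TPM the picture was shifted upward. TPM is a share, and short structural RNAs took 72.7% of it in replicate 1 and 53.9% in replicate 2. Genes of the mitochondrial genome went the other way, from 3.12% to 13.9% of TPM. The part of these in the shift was not tested. Over all tested genes the log2 ratio of TPM, with 1 TPM added to each value, had a median of 0.43. The added 1 TPM makes the ratios of low genes smaller in size. The 8 higher TPM values in replicate 2 named above are to be read against that. Long non-coding genes as a class were also shifted on the TMM scale, with a median log2 ratio of 0.33 over 1472 tested genes, 511 higher and 202 lower. The median of the 9 hosts was -0.26. The common biological coefficient of variation over both libraries, estimated by edgeR with an intercept only, was 0.335, a spread the binomial test does not include.

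Other genes overlap some hosts, and strand handling was not stated. Rcc1, the chromatin-bound exchange factor of Ran, overlaps Snhg3 over 5592 bp on the same strand and had 88 and 85 expected counts, fewer than Snhg3 in replicate 1 and more in replicate 2. On the other strand, the lincRNA Gm17300 overlaps Snhg3 over 1611 bp, Zbtb37 overlaps Gas5 over 428 bp and Mcmdc2 overlaps Snhg6 over 127 bp. Values of Snhg3 in particular may hold reads of its neighbours, and this was not tested. The other 6 hosts had no such neighbour apart from their small RNAs.

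A promoter feature of some hosts was noticed in the sequences and then counted. RefSeq windows (GRCm38.p6) were at hand for 8 of the 9, all but Snhg6. The letters TATA, which read the same on both strands, occurred between 40 and 20 bases before the start in Gas5, Snhg1, Snhg5, Snhg8 and Snhg12, 5 of 8 (62.5%), against 5.49% of 32851 starts and 4.99% of 4492 long non-coding starts. Each window below runs from 40 bases before the start through 20 bases from it, in the direction of transcription, with TATA in capitals where it falls in that range.
Gas5: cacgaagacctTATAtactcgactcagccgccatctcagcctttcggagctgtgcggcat
Snhg1: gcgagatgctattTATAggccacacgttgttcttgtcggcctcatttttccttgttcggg
Snhg5: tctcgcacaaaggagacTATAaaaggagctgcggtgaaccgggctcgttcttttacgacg
Snhg8: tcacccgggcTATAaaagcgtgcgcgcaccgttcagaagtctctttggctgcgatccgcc
Snhg12: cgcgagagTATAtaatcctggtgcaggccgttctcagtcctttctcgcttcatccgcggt
Snhg3: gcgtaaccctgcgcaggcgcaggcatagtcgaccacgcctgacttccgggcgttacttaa
Snhg15: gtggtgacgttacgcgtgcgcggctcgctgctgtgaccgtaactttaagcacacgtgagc
Snhg20: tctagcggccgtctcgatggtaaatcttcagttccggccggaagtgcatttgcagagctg
They lie, in that order, at chr1:161035126-161035185, chr19:8723447-8723506, chr9:88522878-88522937, chr3:123508317-123508376, chr4:132308638-132308697, chr4:132353667-132353726, chr11:6528741-6528800 and chr11:117076743-117076802. A C followed by 4 pyrimidines, the start of a 5′ terminal oligopyrimidine tract known from ribosomal protein genes, was found on the sense strand around the start in 4 of 8 (50%), against 18.3% of all starts. For Snhg5 the RefSeq start is 932 bases from that of its leading transcript here. For Snhg8 it lies 68 bases inside the leading transcript Snhg8-201, so the TATA 30 bases before it also falls inside that transcript. No reading of promoter use follows from these letters.

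Among genes that work with the hosts, all 8 core proteins of snoRNPs, the protein-RNA particles that box C/D and H/ACA RNAs form, were detected. Nop56 and Nop58, the paired scaffold proteins of box C/D particles, were highest with Nop56 at 9.82 and 18.1 TPM and Nop58 at 4.65 and 13.6 TPM, Snu13, which binds the kink-turn, was at 4.50 and 12.4 TPM, and Nop10 of H/ACA particles was lowest at 1.30 and 2.24 TPM. Of these 8, 5 were called higher in replicate 2 (Nop56, Nop58, Snu13 and the H/ACA proteins Gar1 and Dkc1) and 0 lower. Over all tested genes 29.3% were called higher and 30% lower. The median log2 ratio of the 8 was 0.42 against 0.01 over all genes. Of 13 assembly factors 8 were detected, led by Tgs1, the cap hypermethylase, at 21.8 and 32.2 TPM, then Pih1d1 at 2.34 and 3.72 and Ruvbl1 at 1.28 and 3.51 TPM, with Shq1 lowest at 0.55 and 1.14 TPM. In that list 5 were called higher (Znhit6, Coil, Naf1, Nufip1 and Shq1) and 3 lower (Tgs1, Phax and Ruvbl2) of 13 tested. These counts are to be read against the same 29.3% and 30%.

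All 16 factors of nonsense-mediated decay were detected, led by the kinase Smg1 at 40.3 and 79.4 TPM and by Casc3 at 13.0 and 19.2 TPM, with Ncbp1 lowest at 2.48 and 3.96 TPM. Of them 3 were called higher in replicate 2 (Smg1, Upf3a and Upf3b) and 6 lower, against 29.3% and 30% of all tested genes. All 10 genes of a mixed list of RNA decay and intron turnover genes, not limited to the exosome or to introns, were detected. The list was led by the exonucleases Xrn1 at 15.1 and 30.7 TPM and Xrn2 at 18.8 and 25.9 TPM and by Pnrc2 at 17.9 and 21.1 TPM. Exosc5 was lowest at 1.75 and 2.73 TPM. Dis3 alone was called higher, and 5 were called lower (Xrn2, Pnrc2, Dcp2, Exosc10 and Exosc3), against the same shares of all tested genes. Dbr1, the debranching enzyme that opens intron lariats before snoRNA trimming, was at 2.01 and 3.26 TPM and was not called.

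Other non-coding genes listed as hosts lay both above and below the 9 genes in level. Of 14 such genes with a row under the symbol used, 12 hold an annotated small RNA gene, Mir99ahg and Meg3 being the exceptions, and 9 were detected, led by Zfas1, host of Snord12 genes, at 52.1 and 43.9 TPM, Mir99ahg at 25.3 and 63.0 TPM and 1110038B12Rik at 10.2 and 12.3 TPM, and Snhg18, Meg3 and Rian were at 0 counts. Snhg9 counted as detected on 1 expected count in each library. Thus Zfas1 was above Gas5 in replicate 1 and below it in replicate 2. In that list 2 were called higher (Mir99ahg and Snhg17) and 3 lower (Zfas1, 1110038B12Rik and 2410006H16Rik) of 8 tested, against 29.3% and 30% of all tested genes. All 51 protein-coding genes of a chosen list of hosts, 48 of them with an annotated small RNA gene, were detected, with a median of 24.6 and 30.8 TPM. This list is no measure of protein-coding hosts in general. Over all 279 protein-coding genes that hold an annotated small RNA gene the median was 5.02 and 8.99 TPM, with 202 detected. The 9 genes, with a median of 8.65 and 12.6 TPM, were also a chosen list, and all 9 were detected. Over the other annotated non-coding genes that hold a small RNA gene, the median was 0 TPM in each library. The higher median of the 9 genes thus gives no ranking of non-coding over protein-coding hosts. The 51 were led by Hspa8 at 198 and 273 TPM, Eif4g2 at 147 and 256 TPM and Eif4a2 at 64.2 and 154 TPM, with Rcc1 lowest at 1.33 and 2.72 TPM. Of the 51, 11 were called higher and 32 lower, against the same shares of all tested genes. Their median log2 ratio was -0.26, the same to 2 decimals as that of the 9 genes.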

How the data were processed

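For each of the 2 libraries the authors deposited tables per gene and per transcript and a further transcript table from a second tool. Per the file headers, the gene and first transcript tables hold expected counts, which are estimates and can be fractional, and TPM, both laid out as in RSEM output. They also hold, per the file headers, posterior mean TPM, the bounds of a credibility interval of this signal, and the percent of the gene's TPM that each transcript takes, which the authors' tool computed. Those deposited percent values were not used, and shares were computed from TPM. The deposited table of the second tool holds estimated counts and TPM laid out as in kallisto output. The reference was mm10 with GENCODE M21, per the file headers. Tool versions, the aligner and the handling of strand: not given in the sources used here.

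Second-tool gene values were sums over transcripts. Rows that name no mouse gene (1.79% and 0.318% of counts) entered neither library sizes nor tests. A count of 0 allows up to 3 counts, which is 0.105 CPM for replicate 1 and 0.177 CPM for replicate 2, for counting error only, since PCR copies were not marked. TMM scaling and the dispersion used edgeR 4.0.16 (R 4.3.3) on counts rounded to whole numbers, with a prior count of 0.5 in log2 ratios. The exact binomial test used scipy 1.17.1 with pandas 2.3.3, numpy 2.4.6 and Python 3.11.15, and figures used matplotlib 3.10.9. The test was tried on simulated counts that held counting error only. That trial checks the code and cannot show how the test behaves with the wider spread of these libraries. DESeq2 1.42.0 size factors, library size alone, no filter on low counts, the second tool, posterior means, other thresholds, a pseudocount of 0.1 TPM and single replicates were tried as alternatives.

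The members and lists were chosen with earlier results of these data known. Named were all 9 genes. Of each related list, the 3 with the highest mean TPM, the lowest, and any in a count of 5 or fewer were named. Of transcripts, the leading one by mean TPM and retained-intron ones with a mean share of 10% or more were named. Of small RNA genes, the 3 with most counts and all inside Gas5 were named. Other transcripts and genes were named after their values were seen. The symbols 0610007P14Rik, Snhg16, Snhg4 and Snhg7 matched no row and were not used here. A gene that the rule names in a related list is not reported here.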

Additional observations from a re-analysis of the deposited data

How the results depend on the processing

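All 9 genes were detected at TPM 0.5 and 6 at TPM 5, and Snhg8 was called lower in replicate 2 under every scaling, filter, tool and threshold run. The median over the 9 genes was 10.6 TPM, 6.07 TPM with the second tool and 37.6 TPM with short structural and mitochondrial RNAs left out of the total, and ran from 8.65 to 12.6 TPM over single replicates. The median retained-intron share of the 4 genes was 40.8%, against 66.5% of expected counts, 45.5% on posterior mean TPM and 43.8% with 0.1 added to every TPM, and ran from 39.2% to 42.3% over single replicates. The count called lower was 3, against 1 with library size only, 6 with the second tool and 1 at a threshold of 0.01, and the count called higher was 0, against 2 with library size only. At TPM 5 the detected genes numbered 5 of the other non-coding hosts, 1 core protein, 1 assembly factor, 9 decay factors and 6 turnover genes, and at TPM 0.5 the detected assembly factors numbered 13. The causes were not tested beyond what the settings themselves change. No paired analysis was possible because there is 1 group. Depth limits Snhg15, at 74.1 and 41 counts, and fragment length limits the small RNAs.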

Other observations

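The annotation holds 62 further non-coding genes with a small RNA gene inside them on the same strand. Of these, 19 were detected in both libraries at a level of 1 TPM, and the median over all 62 was 0 TPM in each library. Among 279 protein-coding genes that hold a small RNA gene, 202 were detected, with a median of 5.02 TPM in replicate 1 and 8.99 TPM in replicate 2. Of the 224 that were tested between the libraries, 73 were called higher and 91 lower in replicate 2, with a median log2 ratio of -0.06. Over all tested genes 29.3% were called higher and 30% lower.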
